A study of Mus musculus with 6 samples.

Results

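The gene set described here is Myb and 8 further genes by which hematopoietic stem and progenitor cells are commonly recognised: Hlf, Mecom, Ly6a, Procr, Sox4, Cd93, Cd27 and Angpt1. The 9 genes were picked by name from the 47643 genes of the deposited count table, through their Ensembl identifiers, and all 9 were found. Poly(A) RNA was sequenced from mast cells sorted from mouse skin, in 3 embryonic libraries (labelled PRIM, E16.5) and 3 adult libraries (labelled DEF, age given only as adult). All the mice were Cdh5CreERT2, in which a 4-hydroxytamoxifen-inducible Cre is driven by the promoter of the endothelial gene Cdh5, and all received 4-hydroxytamoxifen (4OHT) at embryonic day 7.5. Going by its title, the series used this to map mast cells arising from hemogenic endothelium, and it set the embryonic against the adult population. The sort gate shared CD45+ F4/80- CD64- ckit+ and added ST2+ for the embryonic or Fcer1+ for the adult cells, and the epidermis was removed from adult skin in an extra Dispase step. Age, sort gate and dissociation therefore change together and cannot be told apart. The labels do not say whether cells carrying the Cre-activated mark were sorted separately, or whether the replicates came from separate animals. The p-values set the difference between the groups against the spread of libraries within a group, and that spread may be only technical.

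Myb encodes a DNA-binding transcription factor that hematopoietic stem cells and their progenitors need to expand and to hold back differentiation. Its role is used to tell apart waves of blood formation: definitive hematopoiesis depends on Myb, whereas early yolk sac-derived cells can form without it. The other genes fall into 3 roles. Sox4, Hlf and Mecom are transcription factors; Ly6a (the antigen Sca-1), Procr (the endothelial protein C receptor, also called EPCR), Cd93 and Cd27 encode cell-surface proteins used to sort stem and progenitor cells; and Angpt1 encodes angiopoietin-1, a secreted ligand of the receptor Tie2.

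The promoters of Myb and Procr are shown because these genes carry the most unlike patterns of the set: the one member higher in the embryonic libraries and the one with the largest fold towards the adult libraries. Each window runs from 250 bases before to 50 bases after the RefSeq start site on GRCm38.p6. Each was searched on both strands for 4 short words bound by hematopoietic factors, and matches are in capitals. For the MYB family the word was AACGG, with AACTG taken as an equal alternative. For the erythroid and mast cell factors of the GATA family it was AGATAA. The word for ETS factors was CCGGAA and the one searched for the RUNX factors was TGTGGT. In the windows printed here no match overlaps another. The Myb window is chr10:21160935-21161234 on the minus strand and the Procr window is chr2:155750967-155751266 on the plus strand.
Myb: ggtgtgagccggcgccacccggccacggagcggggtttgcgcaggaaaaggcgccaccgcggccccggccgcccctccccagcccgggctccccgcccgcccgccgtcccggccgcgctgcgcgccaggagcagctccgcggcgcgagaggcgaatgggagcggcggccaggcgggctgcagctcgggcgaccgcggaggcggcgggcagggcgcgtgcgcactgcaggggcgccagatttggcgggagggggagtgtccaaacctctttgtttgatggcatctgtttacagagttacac
Procr: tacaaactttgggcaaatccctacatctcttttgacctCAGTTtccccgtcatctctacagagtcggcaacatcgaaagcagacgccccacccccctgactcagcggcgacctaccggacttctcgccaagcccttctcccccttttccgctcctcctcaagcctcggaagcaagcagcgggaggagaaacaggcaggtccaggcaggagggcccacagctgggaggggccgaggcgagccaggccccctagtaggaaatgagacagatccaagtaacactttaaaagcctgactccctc
The Myb window held none of the 4 words and was 75% G and C. The Procr window held 1 MYB word, read as CAGTT on the strand shown at position -212 from the start site, and was 58.3% G and C. RefSeq windows were found for 6 of the 9 genes. Hlf held an ETS word at -125, Cd27 a MYB word at 8 and each of the 2 Mecom windows a MYB word, at -159 and 41, while Sox4 held none. Of 32851 mouse promoter windows of the same length, 55.1% held a MYB word, 11.2% a GATA word, 14.9% an ETS word and 16.8% a RUNX word, so a MYB match is the common case. A match describes letters only.

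Library totals ran from 34122162 to 49813523 counts, and values below are CPM, counts scaled to a common library size adjusted by the trimmed mean of M-values (TMM). On that scale 3 counts are worth 0.0603 to 0.0850 CPM. The sorted identity was checked with 15 mast cell markers, led by Hdc, Cpa3 and Cma1, which summed to 127800 to 139900 CPM across the embryonic and 65920 to 70110 CPM across the adult libraries. These sums rest mainly on the 3 genes named. By the test described below, 7 of the 15 were higher in embryonic libraries, 5 in adult ones and 3 in neither. Of the genes of the gates, Kit was at 4968 ± 326 CPM among embryonic and 5392 ± 488 CPM among adult libraries (SD, n = 3 each), while Fcer1a was at 5.84 ± 1.47 and 762 ± 186 CPM. The summed keratinocyte markers reached 693 CPM in embryonic library 3 against at most 144 CPM in any other library. Fibroblast and pericyte markers summed to 628 CPM in adult library 3, the lowest value. No called gene of the set moved by more than 1.5 times when either of these libraries was left out.

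Of the 9 genes, 8 had enough counts to be tested and 1, Cd27, did not. Myb was higher in the embryonic libraries. Ly6a, Procr, Sox4, Cd93 and Angpt1 were higher in the adult libraries, and Hlf and Mecom did not pass the test. All tests are edgeR's quasi-likelihood test with Benjamini-Hochberg adjustment over all 15111 genes tested, called at an adjusted p under 0.05. This background is broad: 63.0% of the tested genes were called, 31.2% as higher in embryonic and 31.7% as higher in adult libraries, so being called, as 6 of the 8 were, is the common state of a gene here. The libraries of the 2 groups did not overlap for 6 of the 8 genes, and for 70% of all tested genes. The median log2 fold change (embryonic minus adult) of the 8 was -1.80, against -0.02 for all tested genes. At least 10-fold higher in adult libraries were 863 genes, or 5.71% of those tested, and Ly6a, Procr and Cd93 are among them. Because these are bulk libraries, fewer cells carrying a transcript and less transcript per cell cannot be told apart.

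**Figure D1:**
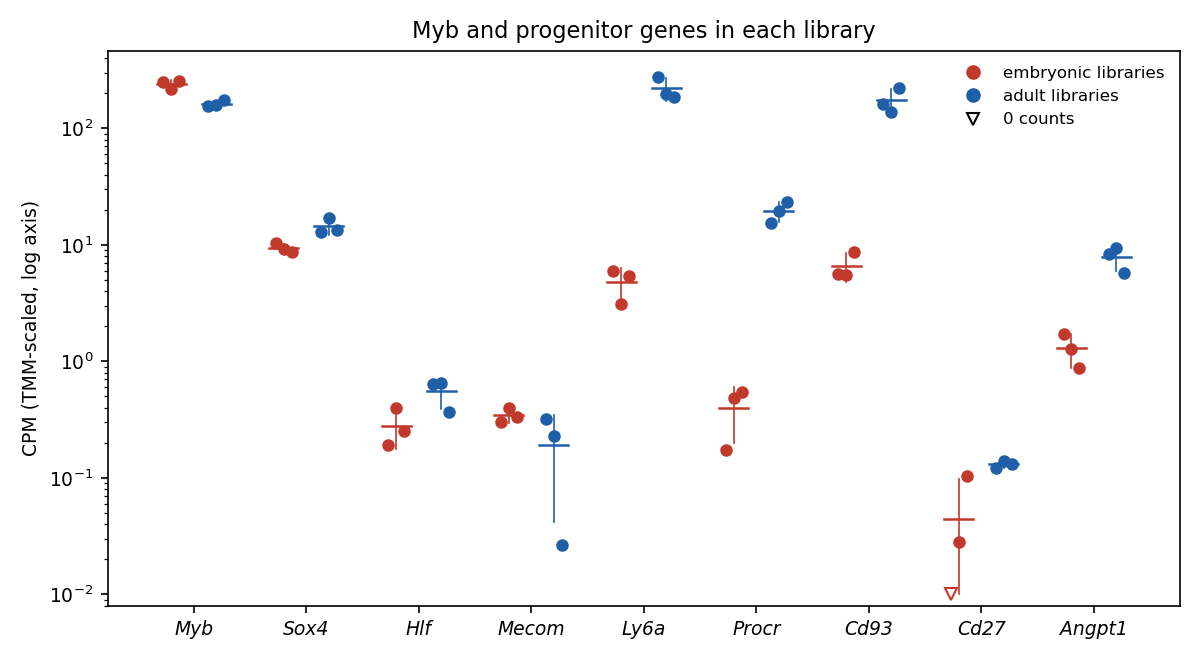
CPM (log axis) of each of the 9 genes in the embryonic (red) and adult (blue) libraries; points are libraries, horizontal bars group means and vertical bars the SD, cut at the foot of the axis, and a triangle marks 0 counts. The 3 embryonic libraries of Myb, at 219.3 to 255 CPM, lie above its adult ones at 155.5 to 174.2 CPM, while for Ly6a, Procr, Cd93 and Angpt1 every adult library lies far above every embryonic one.

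Myb (ENSMUSG00000019982.14) lies at chr10:21124936-21160905 on the minus strand of GRCm38, with 16 merged exons. It stood at 249.7, 219.3 and 255 CPM in embryonic libraries 1 to 3 and at 155.5, 159.1 and 174.2 CPM in adult libraries 1 to 3. Every embryonic library was above every adult one. The means were 241 ± 19.2 and 163 ± 9.91 CPM (SD, n = 3 each), a 1.48-fold higher level in the embryonic libraries (log2 0.57 ± 0.10 SE, edgeR adjusted p = 0.00075). This step is modest for these data, since 30.1% of tested genes moved further in the embryonic direction. The transcript was abundant in both groups: its level per kilobase of exon ranked at percentile 94.8 of the tested genes in embryonic and 91.8 in adult libraries. An opposite-strand gene, Gm26577, overlaps 12% of the Myb exon bases, and reads falling in both are not counted. Gm26577 itself had at most 11 counts in any library.

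The 15 proliferation genes were all higher in the embryonic libraries, with summed levels of 1448 to 1889 CPM against 180 to 262 CPM, and their part in the Myb difference was not tested. Their median log2 fold change was 3.01, against 0.57 for Myb. By the distance between log2 profiles centred over the 6 libraries, the genes most like Myb among 9373 compared were Gabarap (distance 0.0658), which encodes a ubiquitin-like protein of autophagosomes, Isca2 (0.0666), an iron-sulfur cluster assembly factor, and Gde1 (0.0773), a glycerophosphodiester phosphodiesterase. They were 1.46-fold, 1.47-fold and 1.46-fold higher in the embryonic libraries.

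Sox4 (ENSMUSG00000076431.4) is a single-exon gene at chr13:28948919-28953713 on the minus strand and encodes an HMG-box factor active in lymphoid and progenitor cells. It was at 10.35, 9.18 and 8.74 CPM in the embryonic and 12.95, 17.06 and 13.34 CPM in the adult libraries. The groups did not overlap, but the gap was narrow next to that of the surface proteins. Sox4 was 1.53-fold higher in adult libraries (log2 -0.62 ± 0.16 SE, edgeR adjusted p = 0.0082), opposite in direction to Myb and of similar size. An opposite-strand gene, Gm26735, covers 54.6% of the exon bases and had 0 counts in all 6 libraries. Reads in the shared bases are not counted, so the Sox4 level is an underestimate in every library.

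Hlf (ENSMUSG00000003949.16, chr11:90336536-90390895, minus strand) encodes a PAR bZIP factor of stem cells. It gave 9, 14 and 12 counts in the embryonic and 32, 28 and 14 counts in the adult libraries, or 0.193, 0.397 and 0.250 against 0.644, 0.646 and 0.368 CPM. Adult library 3 fell inside the embryonic range. The log2 fold change was -0.99 ± 0.54 SE and did not pass (edgeR adjusted p = 0.131). Mecom (ENSMUSG00000027684.16, chr3:29951296-30548008, minus strand) encodes the zinc-finger factors EVI1 and PRDM3. It gave 14, 14 and 16 counts in the embryonic and 16, 10 and 1 counts in the adult libraries. The groups overlapped, and the log2 fold change of 0.79 ± 0.72 SE did not pass (edgeR adjusted p = 0.359). The single count in adult library 3 sets much of that value: without this library it was 0.30. Both genes were near the limit of detection, at mean levels of 0.193 to 0.553 CPM. Their standard errors of 0.54 and 0.72 were about as large as the Myb log2 fold change of 0.57, or larger. A difference of that size could therefore be missed here.

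Ly6a (ENSMUSG00000075602.10, chr15:74994877-74998031, minus strand, 4 exons) encodes Sca-1, a GPI-anchored surface protein. It was at 5.95, 3.09 and 5.43 CPM in the embryonic libraries and at 277.9, 195.6 and 187.6 CPM in the adult libraries. The lowest adult library was far above the highest embryonic one. The means of 4.82 ± 1.52 and 220.4 ± 49.95 CPM (SD, n = 3 each) give a 45.3-fold higher level in adult libraries (log2 -5.50 ± 0.29 SE, edgeR adjusted p = 1.5e-06). Only 1.88% of tested genes moved further in that direction. Of the 50-base words of Ly6a transcripts, 19% also occur in other genes, among them Ly6c1, Ly6i and Ly6c2, so part of its reads could be split or lost. Ly6c1, the highest of those 3, was at 0.336 CPM among embryonic and 1.54 CPM among adult libraries.

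Procr (ENSMUSG00000027611.12, chr2:155751117-155755471, plus strand, 3 exons), whose promoter is printed above, encodes the receptor that presents protein C to thrombin-thrombomodulin and is a marker of dormant stem cells. It gave 0.172, 0.482 and 0.543 CPM in the embryonic libraries, from 8, 17 and 26 counts, and 15.6, 19.6 and 23.1 CPM in the adult ones. It was thus scarce in every embryonic library and readily detected in every adult one. Procr was 48.7-fold higher in adult libraries (0.399 ± 0.199 against 19.4 ± 3.78 CPM, log2 -5.61 ± 0.36 SE, edgeR adjusted p = 1.3e-06). This is the largest fold of the 8 tested genes, though the values of Procr and Ly6a differ by less than their standard errors.

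Cd93 (ENSMUSG00000027435.8, chr2:148436640-148443563, minus strand, 2 exons) encodes a C-type lectin-like transmembrane protein known as AA4.1, a marker of early progenitors, fetal B-lineage cells and endothelium. Its levels were 5.58, 5.55 and 8.72 CPM in the embryonic and 163.3, 138.2 and 220 CPM in the adult libraries. The groups were far apart, with adult library 3 the highest. The means were 6.62 ± 1.82 and 174 ± 41.9 CPM, a 26.2-fold higher level in adult libraries (log2 -4.71 ± 0.25 SE, edgeR adjusted p = 1.1e-06). Cd27 (ENSMUSG00000030336.14, chr6:125232622-125237010, minus strand), a TNF receptor family member of lymphocytes and short-term progenitors, gave 0, 1 and 5 counts in the embryonic and 6, 6 and 5 in the adult libraries. It did not reach the count needed for the test. The summed counts of 6 and 17 give an adult-to-embryonic ratio of 2.81 with an exact 95% interval of 1.06 to 8.69, which covers counting error only, and embryonic library 3 gave as many counts as adult library 3.

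Angpt1 (ENSMUSG00000022309.8, chr15:42424727-42676977, minus strand, 9 exons) was at 1.72, 1.28 and 0.876 CPM in the embryonic and 8.33, 9.46 and 5.71 CPM in the adult libraries. No adult library came down to the embryonic range. It was 6.07-fold higher in adult libraries (1.29 ± 0.421 against 7.83 ± 1.92 CPM, log2 -2.60 ± 0.32 SE, edgeR adjusted p = 6.9e-05), a smaller fold than those of Ly6a, Procr and Cd93.

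Markers of other cell types moved with some of these genes. Of 11 macrophage and dendritic cell markers 10 were tested, and 8 were higher in adult libraries and 0 in embryonic ones; they summed to 18.6 to 46.2 CPM among embryonic and 126 to 165 CPM among adult libraries, led by Cd68, Cd207 and Flt3. T cell markers, of interest for Cd27, summed to 4.30 to 5.72 and 9.34 to 16.9 CPM, with 6 of 10 tested, 2 higher in each group. Endothelial markers, of interest for Procr, Cd93 and Angpt1, summed to 59.5 to 81.2 CPM among embryonic and 15.2 to 28.7 CPM among adult libraries. Much of the embryonic sum came from Pecam1, Egfl7 and Ptprb, with means of 24.04, 16.65 and 14.73 CPM, against 3.22, 6.64 and 1.49 CPM in adult libraries. Of the 15 markers, 6 were higher in embryonic libraries, 1 (Vwf) in adult ones and 8 in neither. Cdh5 was at 0.885 ± 0.322 and 0.110 ± 0.0619 CPM. Fibroblast and pericyte markers, which matter for Angpt1, summed to 830 to 954 and 628 to 954 CPM, with 3 of 10 higher in adult libraries and 7 in neither. These sums hide a spread within the adult group. Pdgfrb, the most abundant, was at 442.2, 474.6 and 533.4 CPM in adult libraries 1 to 3. Col3a1 was at 125.4, 137 and 25.18 CPM and Col1a2 at 127.2, 106.6 and 16.37 CPM there. Among the adult libraries Angpt1 was lowest in library 3, at 5.71 CPM, as was Ly6a, while Procr and Cd93 were highest there. In embryonic libraries 1 to 3 Col3a1 was at 247.1, 284.5 and 340.3 CPM and Col1a2 at 133.9, 136 and 141.6 CPM. For both genes these values lay above every adult library, whereas Angpt1 was lower in the embryonic libraries, at 0.876 to 1.72 CPM. NK cell and ILC2 markers, like Ly6a, summed to more in adult libraries: 155 to 171 CPM, from 32 to 46.9 CPM in the embryonic ones, with 6 of 10 tested, 3 higher in adult and 1 in embryonic libraries, led by Il7r, Il13 and Gata3, and with Ncr1 and Klrb1c at 0 throughout. Erythroid and platelet markers, like Myb, summed to more in embryonic libraries: 183 to 339 CPM, against 66.8 to 76.4 CPM, with 7 of 10 tested, 4 higher in embryonic and 1 in adult libraries. Their most abundant genes were Gp1ba, Hbb-bs and Hbb-bt, and the globin gene Hbb-bs was at 98.5 ± 41.8 and 3.10 ± 1.83 CPM. Keratinocyte markers summed to 70.3 to 693 and 32.3 to 56.5 CPM, with 4 of 9 higher in embryonic libraries. Basophil markers summed to 805 to 953 and 618 to 710 CPM, with 2 of 5 higher in embryonic and 1 in adult libraries, and the protease gene Prss34 was at 345 ± 69.3 and 0.976 ± 0.169 CPM. B cell markers summed to 6.64 to 7.95 and 0.392 to 0.684 CPM, nearly all from Cd79b at 6.97 ± 0.537 and 0.0490 ± 0.0635 CPM, with 2 of 6 tested, 1 higher in each group, and Ms4a1 and Pax5 at 0 throughout. Neutrophil and granule precursor markers stayed at 0.438 to 0.881 and 0.415 to 0.684 CPM, with 1 of 9 tested, which did not pass, and Elane and Camp at 0 throughout. The part of other cells in the differences of the 9 genes was not tested.

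**Figure D2:**
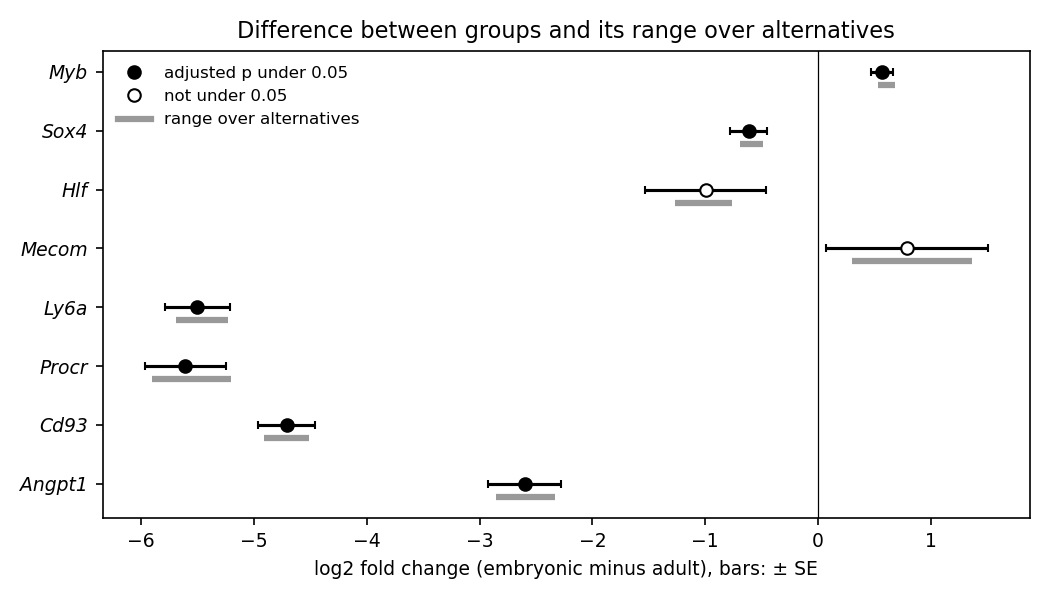
Log2 fold change (embryonic minus adult) of the 8 tested genes, with black bars for the standard error and grey bars for the range over the alternative settings; filled points had an adjusted p under 0.05 and open points did not. Myb is the one filled point to the right of 0, at 0.57, and Procr, Ly6a and Cd93 lie between -5.61 and -4.71.

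Levels can be compared between genes only per length, here as CPM per kilobase of the exon bases that no other gene overlaps, since reads in shared bases are not counted. In the embryonic libraries Myb was first at 67.0, followed by Sox4 at 4.33, Ly6a at 4.00, Cd93 at 0.991, Angpt1 at 0.325, Procr at 0.196, Hlf at 0.0419, Mecom at 0.0278 and Cd27 at 0.0201. Among neighbours in this order, the libraries of Sox4 and Ly6a, Angpt1 and Procr, Hlf and Mecom, and Mecom and Cd27 overlapped, and those of the others did not. In the adult libraries Ly6a was first at 183, followed by Myb at 45.2, Cd93 at 26.0, Procr at 9.55, Sox4 at 6.63, Angpt1 at 1.97, Hlf at 0.0827, Cd27 at 0.0592 and Mecom at 0.0156. There Procr and Sox4, and Hlf and Cd27, overlapped. Over all exon bases Sox4 came to 1.97 and 3.01, below and clear of Ly6a in the embryonic and of Procr in the adult libraries, so its place depends on the overlap with Gm26735. Myb made up 86.2% to 88.0% of the summed level per countable kilobase of the 9 genes in embryonic libraries and 13.7% to 18.9% in adult ones. This share also depends on the other genes. Myb itself was at 67.0 in embryonic and 45.2 in adult libraries, while Ly6a was at 4.00 and 183 and Cd93 at 0.991 and 26.0.

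The wider stem and progenitor list did not share one direction. Of 31 genes 28 were tested; 13 were higher in embryonic and 10 in adult libraries, with a median log2 fold change of 0.17. Lmo2, a LIM-domain partner of hematopoietic factors, was 13-fold higher in adult libraries (3.55 ± 0.156 against 46.4 ± 2.73 CPM, edgeR adjusted p = 1.8e-08), and Fgd5, a guanine nucleotide exchange factor used to mark stem cells, was 7.26-fold higher there. Cd34, a sialomucin of progenitors and endothelium, ran the other way and was 4.19-fold higher in embryonic libraries.

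Among 13 genes of the Myb family and its cofactors, 5 were higher in embryonic and 8 in adult libraries. The coactivator genes Ep300 and Crebbp, whose products bind the Myb transactivation domain, were 1.94-fold and 1.82-fold higher in adult libraries. So was Cited2, whose product binds the same coactivators, at 71.5 ± 8.39 against 882 ± 119 CPM (12.3-fold, edgeR adjusted p = 3.9e-08). Hipk1, a kinase that phosphorylates Myb, was 3.35-fold and the pseudokinase gene Trib2 2.76-fold higher in adult libraries. Mybl2, the family member tied to the cell cycle, was 5.33-fold higher in embryonic libraries, and Mybl1 2.69-fold higher in adult ones at under 1 CPM (0.355 ± 0.125 against 0.957 ± 0.396 CPM).

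Genes described as Myb targets were likewise split: of 20, 17 were tested, with 5 higher in embryonic and 9 in adult libraries (median log2 fold change -0.65). Bcl2, which encodes a survival protein, was at 5.45 ± 0.109 against 50.6 ± 7.35 CPM, 9.28-fold higher in adult libraries, and Myc 6.72-fold higher there. Ccnb1, the mitotic cyclin B1 gene, was 12.4-fold higher in embryonic libraries. Kit, itself a described target, did not pass (edgeR adjusted p = 0.367). Of 16 early myeloid genes 11 were tested, with 3 higher in each group. Calr was 3.04-fold and Fcgr3 1.82-fold higher in embryonic libraries, and the granule protease gene Ctsg 6.69-fold higher in adult ones. The myeloid granule gene Mpo was at 0.160 and 0.244 CPM and Elane at 0 counts in all libraries.

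**Figure D3:**
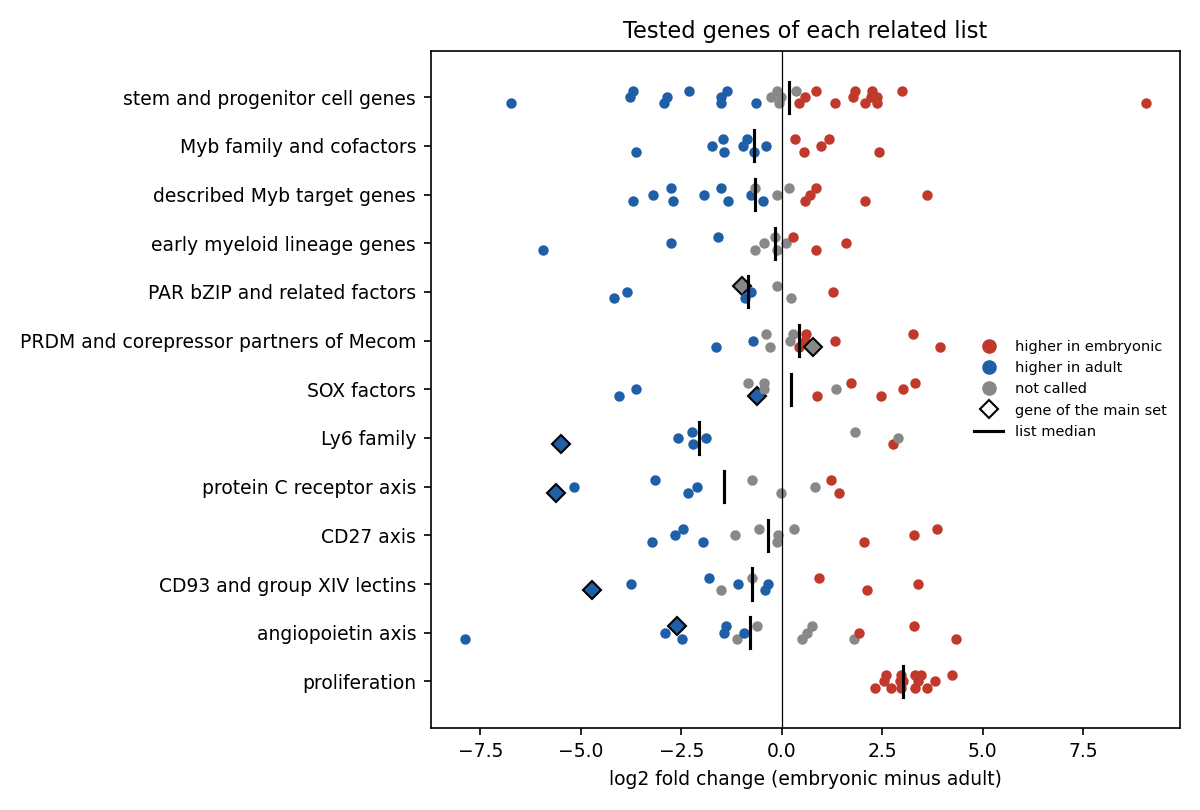
Log2 fold change (embryonic minus adult) of the tested genes in each related list; each point is a gene, diamonds mark genes of the main set, black bars list medians and colours the direction of the call. The proliferation genes lie wholly to the right of 0, with a median of 3.01, while the stem and progenitor list is spread on both sides around a median of 0.17.

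The transcription factor families of the 3 other factors were described in the same way. Of the 8 PAR bZIP and related genes, Hlf included, 4 were higher in adult and 1 in embryonic libraries. Dbp and Tef, the closest relatives of Hlf, were 14.4-fold and 1.88-fold higher in adult libraries (0.853 ± 0.127 against 12.4 ± 3.12 CPM for Dbp), as was Cebpd (18.2-fold), while Nfil3, a repressor at the same sites, was 2.42-fold higher in embryonic libraries. Of 13 PRDM factors and corepressor partners, Mecom included, 6 were higher in embryonic and 2 in adult libraries. Prdm1 was 15.4-fold higher in embryonic libraries and Prdm2 3.12-fold higher in adult ones. Prdm16, the nearest relative of Mecom, was at 3.91 ± 1.27 and 1.54 ± 0.832 CPM, 2.53-fold higher in embryonic libraries. Of 12 SOX genes, Sox4 included, 5 were higher in embryonic and 3 in adult libraries. Sox11 and Sox12, which with Sox4 form the SoxC group, were at 0.749 and 1.25 CPM among embryonic and 0.0885 and 2.24 CPM among adult libraries. Sox11 was 8.04-fold higher in embryonic libraries and Sox12 did not pass. Sox7 and Sox6 were 16.6-fold and 12.3-fold higher in adult libraries, and Sox13 1.83-fold higher in embryonic ones.

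Besides Ly6a, 23 Ly6 family genes were in the table and 7 were tested, with 4 higher in adult libraries and 1 in embryonic ones. Ly6e, a widely expressed relative, was at 23.2 ± 4.11 against 138 ± 5.33 CPM, 5.94-fold higher in adult libraries. At low levels, Ly6g5b was 3.68-fold higher there (0.61 ± 0.28 against 2.24 ± 0.64 CPM) and Lynx1 4.69-fold (0.17 ± 0.05 against 0.78 ± 0.45 CPM). Gpihbp1, also low, was 6.78-fold higher in embryonic libraries (0.68 ± 0.38 against 0.098 ± 0.136 CPM). In the protein C receptor axis without Procr, 9 of 13 genes were tested, and 4 were higher in adult and 2 in embryonic libraries. F2r, the thrombin receptor PAR1 through which protein C bound to its receptor signals, was at 7.0 ± 0.896 against 252 ± 29.2 CPM, 35.9-fold higher in adult libraries (edgeR adjusted p = 6.7e-09). Pros1, the gene of the cofactor protein S, was 8.90-fold higher in adult libraries and S1pr1 2.69-fold higher in embryonic ones. Thbd, the gene of thrombomodulin, did not pass at 1.14 ± 0.811 and 1.92 ± 0.254 CPM.

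In the CD27 axis without Cd27 itself, 12 of 13 genes were tested, with 4 higher in adult and 3 in embryonic libraries. Cd70, which encodes the ligand of CD27, gave 3 counts in 1 embryonic library and 0 in the others. Downstream, Traf5, an adaptor recruited by the receptor, was 5.46-fold and Map3k14, the NF-kappaB-inducing kinase gene, 9.43-fold higher in adult libraries, while the other adaptor gene Traf2 lay at 112 and 122 CPM without passing. Of the receptors of this family, Tnfrsf1b was 3.86-fold higher in adult and Tnfrsf18 9.85-fold higher in embryonic libraries. Of 11 genes of the CD93 and group XIV lectin list, 6 were higher in adult libraries, Cd93 included, and 3 in embryonic ones. The related lectin gene Clec14a was 10.4-fold and Gipc1, which encodes a PDZ protein that binds the CD93 tail, 1.91-fold higher in embryonic libraries. Cbl, a ubiquitin ligase gene, was 2.11-fold higher in adult libraries. The CD93 ligand gene Mmrn2 lay at 0.532 ± 0.486 and 1.54 ± 0.991 CPM without passing (edgeR adjusted p = 0.0911).

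In the angiopoietin axis without Angpt1, 15 of 16 genes were tested, with 6 higher in adult and 3 in embryonic libraries. Tek, which encodes the angiopoietin-1 receptor Tie2, and the related gene Tie1 were scarce. Tek was at 0.444 ± 0.124 and 0.967 ± 0.267 CPM and Tie1 at 1.16 ± 0.849 and 0.329 ± 0.332 CPM, and neither passed (edgeR adjusted p = 0.0637 and 0.145). Angpt2, the gene of the competing ligand, was similarly scarce and 2.72-fold higher in adult libraries (0.41 ± 0.21 against 1.10 ± 0.22 CPM, edgeR adjusted p = 0.038). Vegfa, which encodes an endothelial growth factor, was at 40.5 ± 7.85 against 302 ± 72.4 CPM, 7.46-fold higher in adult libraries. The integrin genes Itga5 and Itgav were 5.58-fold and 1.91-fold higher in adult libraries, and the phosphatase gene Ptprb, whose product dephosphorylates Tie2, 9.83-fold higher in embryonic ones.

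**Figure D4:**
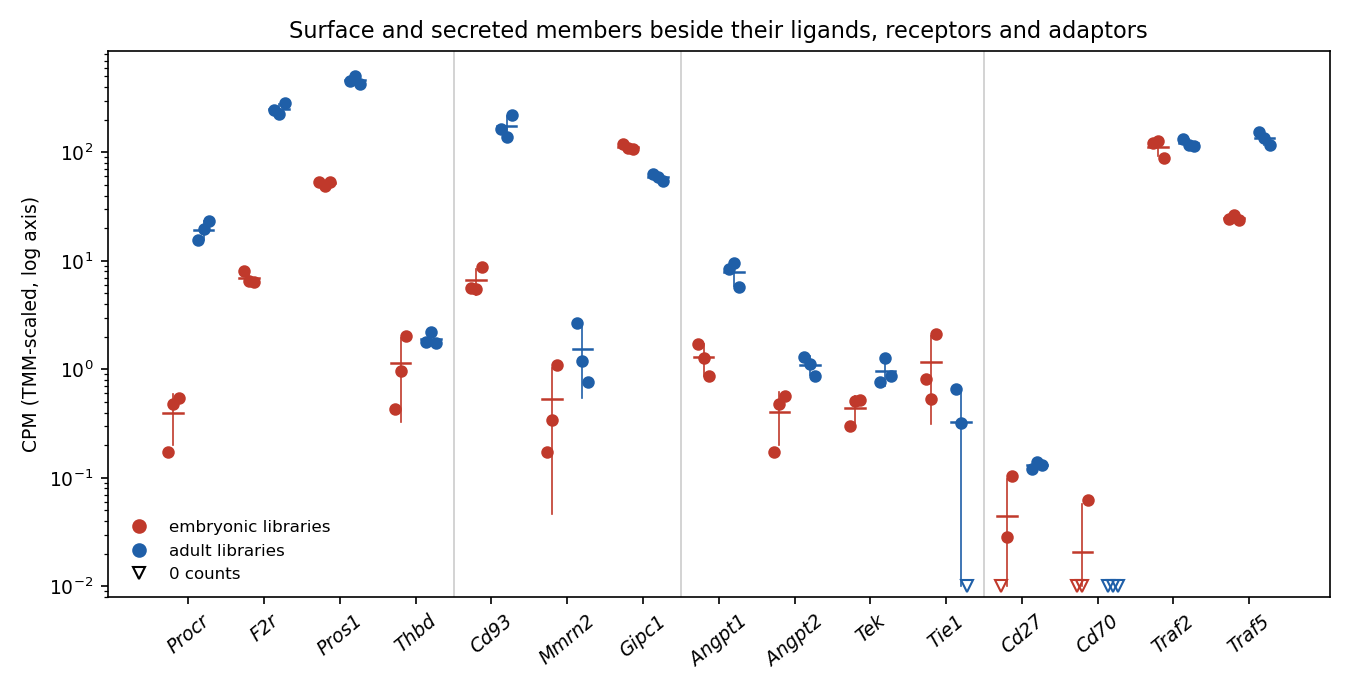
Procr, Cd93, Angpt1 and Cd27, each followed by other genes of its list, in CPM on a log axis for the embryonic (red) and adult (blue) libraries. Points are libraries, horizontal bars group means and vertical bars the SD, cut at the foot of the axis, and triangles mark 0 counts. F2r and Pros1, like Procr, have every adult library above every embryonic one, while Tek and Tie1 have means of at most 1.16 CPM in either group.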

How the data were processed

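The deposited table holds raw read counts per gene for 6 libraries (none belonging to other samples: 0 further columns). Per the file headers, the authors counted reads over exons with featureCounts 1.5.0-p1 against GENCODE M9, without strand (setting 0) and ignoring reads marked as duplicates. Alignment with STAR to GRCm38 and use of edgeR are per the submitters' processing notes, with versions not given in the sources used here. Per the labels' protocols, cDNA was made from 10 ng of RNA by SMART-Seq v4, with Nextera XT libraries, a kit that does not mark strand. The annotated exon length of each gene, another deposited column, was used for levels per kilobase.

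Symbols came from GENCODE M21 by gene identifier (47224 of 47643 genes matched). Genes passing edgeR's filterByExpr (minimum count 10) were scaled by TMM and tested with edgeR 4.0.16 (R 4.3.3, limma 3.58.1), using the robust quasi-likelihood test. The standard error is the log2 fold change over the square root of F. Tested on simulated data for this comparison (15111 genes, 200 of them changed), the procedure found 6% of the genes altered 1.5-fold, 38% at 2-fold, 96% at 4-fold and all (100%) at 8-fold, with 3.23% of calls false. The simulation gave every gene the same spread between libraries, a coefficient of variation of 22.5% beyond counting error. It also changed few genes, whereas 63.0% were called in the data. Its shares therefore do not give the power or the share of false calls in these data. Alternatives used other scalings, filters and tools (DESeq2 1.42.0, limma-voom), left out libraries, or blocked by replicate number. Counting intervals are exact binomial.

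The members and lists were chosen with earlier results of these data known. From each list the 3 genes with the smallest adjusted p were named, plus 1 gene, chosen likewise, from the direction that had fewer calls. Some genes that this rule names are not reported here. Ep300, Crebbp, Mybl1, Myc, Cd34, Kit, Mpo, Elane, Prdm16, Sox11, Sox12, Thbd, Cd70, Traf2, Mmrn2, Tek, Tie1 and Angpt2 were named for their role, after their values were seen; markers were named by highest mean, except Cdh5, whose promoter drives the Cre, and Ms4a1, Pax5, Ncr1, Klrb1c, Elane and Camp, named because they were at 0. Counts of related genes leave out the member itself where the text says so. Promoter sequences are from RefSeq.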

Additional observations from a re-analysis of the deposited data

How the results depend on the processing

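The same 6 genes of the set were called in the same direction in each of 16 alternatives: other scalings, filters, tools and threshold, the block, and each library left out. Folds ranged from 1.44 to 1.60 for Myb, 1.40 to 1.62 for Sox4, 37.4 to 51.5 for Ly6a, 36.9 to 59.6 for Procr, 22.7 to 30.2 for Cd93 and 5.04 to 7.22 for Angpt1. Sox4 had the largest adjusted p among these (0.0042 to 0.0427). Hlf and Mecom were called in none and were not tested with a filter of 1 CPM in 3 libraries. With Cd27 tested by a filter of 1 count, its log2 fold change was -1.44 ± 1.23 (edgeR adjusted p = 0.373). Genes higher in adult libraries numbered 3802 to 5290 overall.

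The labels name no litter or day shared by libraries of the same replicate number, so the samples were not treated as paired. Deviations of same-numbered libraries from their group means correlated at -0.109, -0.0905 and -0.117. With 3 libraries per group, these values cannot show whether a litter or day was shared. With the replicate number as a block, Myb stayed at log2 0.57 (edgeR adjusted p = 0.0027), and the test called 4379 genes towards embryonic and 4469 towards adult libraries.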

Other observations

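The 18 chromosomal neighbours of the 9 genes, 1 on each side, were set beside them: 9 were tested, of which 2 were higher in embryonic libraries, 2 in adult ones and 5 in neither. Ahi1, the neighbour of Myb on one side, lay at 17.1 ± 3.01 CPM among embryonic and 16.7 ± 0.858 CPM among adult libraries and did not pass. Hbs1l, on the other side, was at 93.9 ± 12.1 and 118 ± 2.41 CPM, 1.26-fold higher in adult libraries (edgeR adjusted p = 0.0231) and so opposite to Myb. Next to Hlf, Mmd was 2.71-fold and Stxbp4 2.06-fold higher in embryonic libraries. Ly6c1, next to Ly6a and similar to it in sequence, was 4.63-fold higher in adult libraries (0.336 ± 0.169 against 1.54 ± 0.961 CPM, edgeR adjusted p = 0.0153), the direction of Ly6a. Its groups overlapped, since adult library 3, at 0.474 CPM, fell inside the embryonic range. Cdkal1 next to Sox4, Thbd and Nxt1 next to Cd93 and Tapbpl next to Cd27 did not pass.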
